A study of Mus musculus with 16 samples.

Results

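The comparison is between germline stem cells labelled Hif1a KO and wild type cells of the same line, all kept at 1% oxygen. It takes in 4 of the 16 RNA-seq libraries of the series, 2 in each group. Of the 21924 protein-coding genes in the deposited table, 14841 were tested, those with at least 1 CPM (a read count scaled to a fixed total of reads on genes) in at least 2 of the 16 libraries. Germline stem (GS) cells are spermatogonial stem cells from mouse testis that divide in culture. They were grown here with GDNF and FGF2 on a layer of mouse embryonic fibroblasts, and the labels name no step that took the fibroblasts away before RNA was extracted. Both groups came from mice of a mixed 129 x C57BL/6 background and were gassed with 1% O2 in plastic bags. Cells labelled Hif1a KO were also given AxCANCre, a Cre vector, on the day the hypoxia began. Whether wild type cells received a control vector, how many clones or mice each group stands for, and which part of the gene is removed were not stated in the labels or the series text. That text gives 2 days at 1% oxygen, while the names of these 4 libraries carry a mark of 6 days. The 2 libraries of a group are separate samples by their labels, but nothing says that they came from separate cultures. The p-values therefore measure only the spread between libraries of the same group, pooled over all groups of the series. That spread may be technical. A further 2 pairs of groups serve below as a measure of difference: the same genotypes of the Hif1a line at 20% oxygen, and wild type and Top1mt KO cells of another line (C57BL/6) at 1% oxygen. Library names of the Top1mt line carry a mark of 2 days, and those at 20% oxygen carry no day mark.

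HIF-1 is a transcription factor made of an oxygen-regulated alpha subunit (HIF-1alpha, the product of Hif1a) and a constant beta subunit (ARNT). With oxygen present, prolyl hydroxylases of the EGLN family mark the alpha subunit, the VHL ubiquitin ligase binds the marked protein, and the proteasome degrades it. Without oxygen the pair binds DNA at a short motif, ACGTG, and switches on genes of glucose uptake, glycolysis, vessel growth and matrix modification, with some targets shared with its paralog HIF-2alpha (Epas1). Spermatogonial stem cells renew themselves in response to GDNF, which signals through RET and GFRA1, and leave that state by turning on Kit and, under retinoic acid, Stra8.

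Hif1a itself was higher, not lower, in the libraries labelled Hif1a KO. The gene, at chromosome 12, 73901375 to 73947530 on the plus strand of GRCm38, was measured at 251 and 251 CPM in wild type and 618 and 593 CPM in labelled KO. The groups did not overlap, and the log2 fold change of CPM + 1 was 1.27 ± 0.058 (SE, adjusted p = 1.0e-12, limma with Benjamini-Hochberg adjustment over 14841 genes). At 20% oxygen the same genotypes had 116 and 118 CPM in wild type and 139 and 142 CPM in labelled KO. A total over the whole gene cannot show the loss of a few exons, and the deleted part is not known here, so the transcript level does not check the label. The annotation also places an antisense gene, Gm15283, across the locus and the protein-coding Gm49321 over its last part on the same strand. The strand setting of the read counting is not stated, so reads from these genes cannot be told apart from those of Hif1a. Because the measured transcript goes against the label, the 2 libraries are called labelled Hif1a KO, or labelled KO for short, throughout.

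The difference between the groups spread over most of the transcriptome. At an adjusted p of 0.05, 11488 genes differed, 4205 of them higher (28.3% of the genes tested) and 7283 lower (49.1%) in the libraries labelled Hif1a KO. Of these, 11463 had no overlap between the groups. With 2 libraries a group a called gene almost always lacks overlap, and this was counted among called genes only. Lack of overlap, here and below, is therefore a description and adds no support to a call. A change of at least 2-fold was reached by 1141 of the higher and 753 of the lower genes, and the median over all genes was -0.21. These values depend on the scale, because CPM divides by a total that a few abundant genes can fill. With median-of-ratios scaling, which centres the typical gene, the median moved up by 0.235, and 5955 genes were called higher (40.1%) and 5002 lower (33.7%). Higher genes made up 36.6% of the calls on CPM and 54.3% after that scaling. Changes below are therefore read against the median of -0.21. The other scalings are median-of-ratios, TMM, and the count tests of edgeR and DESeq2. A named gene is marked where median-of-ratios scaling ends its call or any of the 4 turns its direction. A call lost only under TMM, edgeR or DESeq2 is not marked. Of 280 named genes, 9 kept their direction but lost their call under median-of-ratios scaling, 9 under TMM, 10 under edgeR and 12 under DESeq2. Cdkn1b, Dusp6, Gpi1, Ldhb, Narf, Nqo1 and Trp53, given below as not passing on CPM, were called higher under all 4 scalings, by 0.26 to 0.57. Counts of list members are likewise to be read against the shares of all genes called. The libraries held 13721246 and 19766448 reads on genes in wild type and 15595077 and 25659895 in labelled KO, within the 11942104 to 25659895 of the series, so 1 read stood for 0.039 to 0.0729 CPM. The wild type libraries at 1% oxygen differed more from each other than any other pair of the series, with a chi-square per gene of 7.60 against 1.79 to 3.68 in the other groups. The spread behind the p-values is pooled over all groups, so it can understate that of this pair. Leaving out the first of them gave 10691 calls, and leaving out the second gave 11196.

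Markers of the cells in the dish moved with the comparison, and they stand beside all gene groups below. Summed over 20 genes of germ cell identity, CPM was 5626 and 5213 in wild type and 2361 and 2502 in labelled KO, 0.449 times the level. Summed over 28 markers of fibroblasts, the cell type of the feeder layer, CPM was 32787 and 41019 in wild type and 71713 and 69756 in labelled KO, 1.92 times the level, or 7.07% against 3.69% of all reads on genes. All 28 passed the expression minimum, so germ cells and feeder layer are read together. In such bulk libraries, fewer germ cells and less germ cell RNA per cell cannot be told apart. The part of the cell mix in the results below was not tested. Genes that mark other cells were low: the Leydig cell list summed to 5.98 and 7.08 CPM in wild type and 6.86 and 5.03 CPM in labelled KO, with 7 of its 8 genes under the expression minimum and none called. The Sertoli cell list summed to 30.8 and 31.3 CPM and 30.4 and 30.9 CPM, with 1 of 6 tested genes called higher and 3 lower, and Amh and Fshr under the minimum. The leukocyte list summed to 24.0 and 28.3 CPM and 37.3 and 47.5 CPM, with 2 of 6 called higher and none lower. Under median-of-ratios scaling 4 of its genes were called higher. The endothelial list summed to 125 and 127 CPM and 53.5 and 58.9 CPM, with 1 of 6 higher, a call that ends without the second library of either group, and 3 lower. Most of that sum came from Erg, which had 103 and 107 CPM in wild type and 39.7 and 44.2 CPM in labelled KO.

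**Figure D1:**
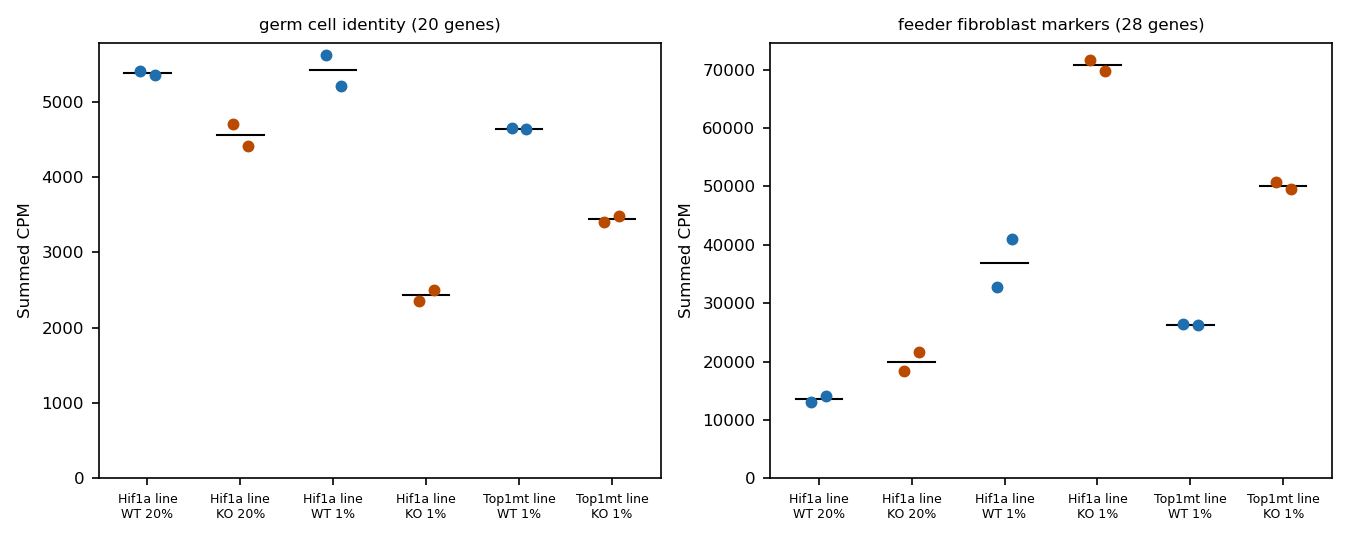
Summed CPM (linear axis from 0) of 20 germ cell identity genes (left) and 28 fibroblast markers (right) in 6 groups of 2 libraries, 1 point a library and a line at the mean, wild type in blue and labelled KO in orange. The libraries labelled Hif1a KO at 1% oxygen have the lowest germ cell sums of the 6 groups shown, 2361 and 2502 CPM, and the highest fibroblast sums, 71713 and 69756 CPM.

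The alpha subunits of HIF did not move together. Of 14 genes of the HIF pathway, Hif1a included, 6 were called higher and 7 lower, with a median of -0.17 that becomes 0.11 under median-of-ratios scaling. Over all genes 28.3% were called higher and 49.1% lower, with a median of -0.21. Epas1, which encodes HIF-2alpha, had 56.3 and 57.4 CPM in wild type and 67.2 and 64.5 CPM in labelled KO. Labelled KO lay above wild type without overlap, by 0.21 ± 0.058 on the log2 scale (adjusted p = 0.003). Hif3a, which encodes an alpha subunit whose short forms inhibit the others, had 22.7 and 21.4 CPM in wild type and 10.8 and 10.9 CPM in labelled KO. It fell by 0.96 ± 0.082 (adjusted p = 2.1e-09), and at 20% oxygen it lay at 27.7 and 29.7 CPM in wild type and 28.6 and 27.5 CPM in labelled KO. Arnt, the shared partner, had 127 and 124 CPM in wild type and 121 and 124 CPM in labelled KO. The groups overlapped, and the difference of -0.034 ± 0.045 did not pass (adjusted p = 0.5), while median-of-ratios scaling turns it into a called rise of 0.25. Its paralog Arnt2 rose from 17.6 and 21.3 CPM to 30.7 and 28.5 CPM.

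The oxygen sensors went in different directions. Egln3, a prolyl hydroxylase that is itself a HIF target, had 77.5 and 85.8 CPM in wild type and 155 and 155 CPM in labelled KO. Labelled KO stood above both wild type libraries, with a log2 fold change of 0.92 ± 0.063 (adjusted p = 1.0e-10). Egln1, the main hydroxylase of normal oxygen, rose less, from 129 and 147 CPM to 165 and 164 CPM (0.25 ± 0.061). Egln2, the third hydroxylase, fell from 73.4 and 84.3 CPM to 57.6 and 62.7 CPM. Vhl, the ligase subunit, fell from 52.2 and 53.7 CPM to 41.0 and 44.0 CPM. Neither of these last calls holds under median-of-ratios scaling. Hif1an, the asparaginyl hydroxylase that blocks the binding of coactivators, had 217 and 212 CPM in wild type and 112 and 124 CPM in labelled KO. It fell by 0.86 ± 0.051 (adjusted p = 1.7e-11), without overlap. The coactivator genes fell as well. Crebbp fell from 368 and 348 CPM to 189 and 182 CPM. Ep300 fell from 249.9 and 229 CPM to 154 and 162 CPM. Siah2, a ubiquitin ligase for the hydroxylases, fell from 54.7 and 49.0 CPM to 29.3 and 29.3 CPM, while Cited2, which competes with HIF for the coactivators, rose from 46.6 and 52.6 CPM to 66.8 and 61.7 CPM.

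**Figure D2:**
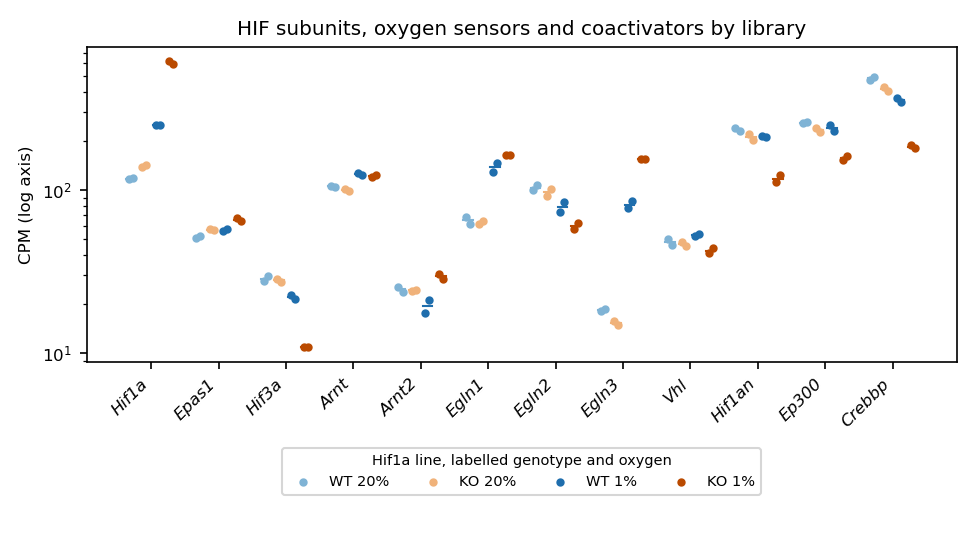
CPM (log axis) of 12 HIF pathway genes in the 8 libraries of the Hif1a line, 1 point a library and a line at each mean, by labelled genotype and oxygen. Hif1a and Egln3 are highest, and Hif3a, Hif1an, Ep300 and Crebbp lowest, in the libraries labelled Hif1a KO at 1% oxygen, and Arnt differs little between the groups.

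Promoters of HIF target genes are shown for a pair of glycolysis genes that rose, Pgk1 and Ldha, and a pair of hypoxia-responsive genes that fell, Aldoc and Ankrd37, since the members of the target lists moved both ways. The choice, by size of change, was made among the list genes for which RefSeq gave a promoter. Bhlhe40, which rose more than Pgk1 and Ldha, and Slc2a3, which fell more than Aldoc, had none there. The choice also gave Stc2, which rose, and Kdm3a, which fell. Each of them has 0 matches to ACGTG and is not printed. The sequences take in 250 bases before the annotated start. They are RefSeq's on GRCm38.p6, written 5′ to 3′ on the gene's strand, with each ACGTG, read on either strand, in capitals.
Pgk1 (chrX:106186850-106187099, plus strand): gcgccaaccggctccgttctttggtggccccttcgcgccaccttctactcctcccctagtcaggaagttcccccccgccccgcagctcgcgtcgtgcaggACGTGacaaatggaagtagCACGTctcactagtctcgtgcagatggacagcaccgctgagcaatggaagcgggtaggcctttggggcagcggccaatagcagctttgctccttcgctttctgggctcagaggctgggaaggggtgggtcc
Ldha (chr7:46845554-46845803, plus strand): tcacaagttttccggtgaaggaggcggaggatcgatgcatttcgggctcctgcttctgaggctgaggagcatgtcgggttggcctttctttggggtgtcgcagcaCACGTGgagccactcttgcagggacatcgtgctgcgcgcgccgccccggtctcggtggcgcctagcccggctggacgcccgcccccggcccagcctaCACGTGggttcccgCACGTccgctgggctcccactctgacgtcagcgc
Aldoc (chr11:78322823-78323072, plus strand): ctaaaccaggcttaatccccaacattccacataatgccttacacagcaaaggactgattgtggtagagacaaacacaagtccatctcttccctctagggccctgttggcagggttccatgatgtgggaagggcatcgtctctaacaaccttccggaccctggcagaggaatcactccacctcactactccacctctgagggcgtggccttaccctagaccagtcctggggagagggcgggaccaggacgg
Ankrd37 (chr8:45999851-46000100, minus strand): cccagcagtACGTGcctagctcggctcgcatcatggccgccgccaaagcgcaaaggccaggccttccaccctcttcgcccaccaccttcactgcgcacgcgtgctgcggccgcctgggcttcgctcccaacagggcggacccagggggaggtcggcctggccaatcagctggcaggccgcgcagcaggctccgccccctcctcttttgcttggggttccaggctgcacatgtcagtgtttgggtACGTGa
Pgk1 and Ankrd37 each hold 2 copies of the motif, and Aldoc holds 0. Ldha has 5 matches over both strands but fewer marked stretches, because each CACGTG is a match on either strand and counts once for each. Letters and direction of change are therefore not matched in these 4. Of the 69 tested genes on the hypoxia target, transport and glycolysis lists, 54 had a promoter in the table, and 24 of those (44.4%) held ACGTG on either strand. The share was 18 of 40 (45.0%) among those called higher and 4 of 9 (44.4%) among those called lower. The motif was held by 16.6% of all 27025 promoters given there and by 21.3% of the 11589 promoters of genes tested here. A match of 5 letters is a description and does not show that HIF binds there. Where RefSeq gave several starts for a gene, the first listed was used. For Ldha and Aldoc the start used lies inside the gene's GENCODE span, and another start could give another number of matches.

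Hypoxia targets outside glycolysis were mostly higher in the libraries labelled Hif1a KO. Of 40 genes, 30 were called higher and 8 lower, against 28.3% and 49.1% of all genes, with a median of 0.67 beside -0.21 for all genes. Bnip3, which drives the removal of mitochondria by autophagy, had 89.6 and 98.3 CPM in wild type and 173 and 178 CPM in labelled KO. Both labelled KO libraries were above both wild type libraries, and the log2 fold change was 0.90 ± 0.064 (adjusted p = 1.5e-10). Car9, a carbonic anhydrase that controls pH at the cell surface, had 14.6 and 20.0 CPM in wild type and 30.1 and 30.4 CPM in labelled KO. It rose by 0.79 ± 0.16 (adjusted p = 1.2e-04), while at 20% oxygen no library of the line exceeded 0.382 CPM. Vegfa, the main signal for vessel growth, had 153 and 183 CPM in wild type and 281 and 275 CPM in labelled KO. Its rise was 0.73 ± 0.088 (adjusted p = 2.9e-07), again with no overlap.

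Secreted and stress-related targets rose by various amounts. Hmox1, heme oxygenase, had 248 and 287 CPM in wild type and 644 and 610.4 CPM in labelled KO. Its log2 fold change was 1.23 ± 0.061, and its adjusted p (2.1e-12) was the smallest of the list. Bhlhe40, a clock-linked repressor, rose from 94.2 and 113 CPM to 301 and 300.4 CPM, the largest rise of the list at 1.54 ± 0.088. Stc2, a secreted glycoprotein, rose from 14.0 and 17.8 CPM to 45.5 and 44.2 CPM (1.45 ± 0.13). Adm, which encodes the vasodilator adrenomedullin, rose from 70.3 and 80.3 CPM to 166 and 161 CPM. Ddit4, an inhibitor of mTORC1, rose from 67.9 and 74.5 CPM to 142 and 142 CPM. Ndufa4l2, which lowers complex I activity, rose from 57.7 and 71.9 CPM to 165 and 156 CPM. In each of these genes both labelled KO libraries exceeded both wild type libraries. The collagen hydroxylase genes P4ha1, P4ha2, Plod1 and Plod2 rose by 0.51 to 0.95. The stress gene Ndrg1 and the mitochondrial genes Fam162a and Higd1a rose by 0.65 to 0.80.

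The 8 targets that fell were Kdm3a, Ak4, Ankrd37, Bhlhe41, Ppp1r3c, Sap30, Mxi1 and Nos2, with log2 fold changes of -0.82 to -0.33. Kdm3a, a histone demethylase, had 291 and 267 CPM in wild type and 159 and 157 CPM in labelled KO. It fell by 0.82 ± 0.053 (adjusted p = 4.6e-11), the largest fall of the list. Ak4, a mitochondrial adenylate kinase, fell from 131 and 113 CPM to 72.6 and 74.8 CPM. Ankrd37 fell from 13.9 and 15.6 CPM to 8.46 and 8.61 CPM. Mxi1, an antagonist of Myc, fell from 64.8 and 65.9 CPM to 47.1 and 49.9 CPM. The groups did not overlap for any of these 4 genes. The falls of Sap30 and Nos2 are not called under median-of-ratios scaling. Bnip3l, the paralog of Bnip3 with the same role in mitophagy, had 109.8 and 113 CPM in wild type and 101 and 106 CPM in labelled KO and did not pass, but the other scalings turn it into a called rise of 0.14 to 0.18. Narf did not pass either, at 35.2 and 35.7 CPM in wild type and 39.7 and 34.4 CPM in labelled KO.

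**Figure D3:**
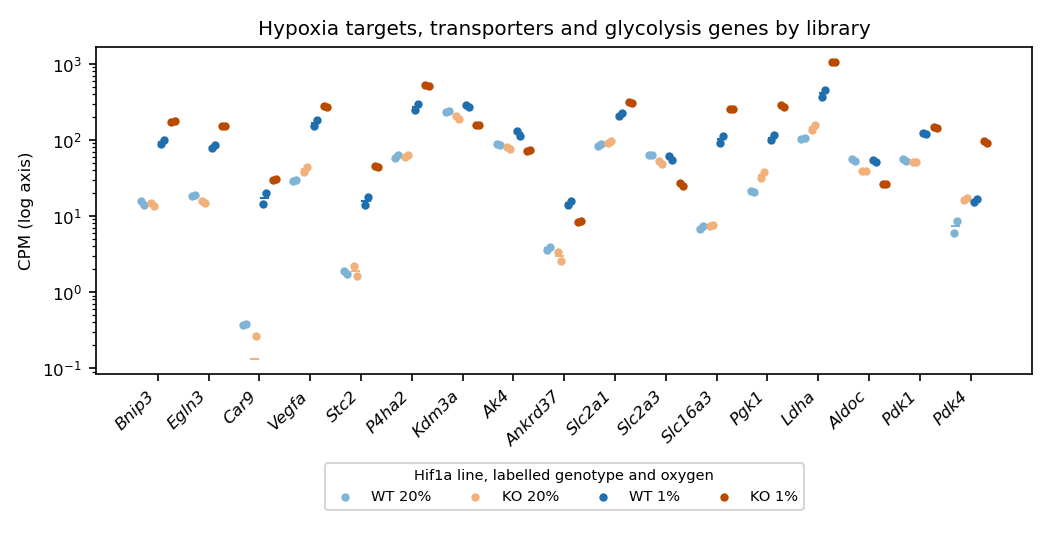
CPM (log axis) of 17 hypoxia targets, transporters, glycolysis and pyruvate dehydrogenase kinase genes in the 8 libraries of the Hif1a line, 1 point a library and a line at each mean. 1 library of Car9 at 20% oxygen is at 0 CPM and cannot be drawn on this axis. Most genes are highest in the libraries labelled Hif1a KO at 1% oxygen, while Kdm3a, Ak4, Ankrd37, Slc2a3 and Aldoc are lower there than in wild type at 1%.

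Sugar and lactate carriers split by paralog, 4 of 7 called higher and 2 lower. Slc2a1, which encodes the widespread glucose carrier GLUT1, had 207 and 224 CPM in wild type and 316 and 304 CPM in labelled KO. It rose by 0.52 ± 0.052 (adjusted p = 1.8e-08), without overlap. Slc2a3, which encodes the high-affinity carrier GLUT3, had 61.8 and 54.7 CPM in wild type and 27.1 and 24.9 CPM in labelled KO. It moved the other way and fell by 1.13 ± 0.064 (adjusted p = 9.6e-12). The lactate exporter gene Slc16a3 rose from 91.2 and 114 CPM to 256 and 251 CPM, the largest rise of the 7 at 1.31 ± 0.084. Slc16a1 rose slightly, from 215 and 184 CPM to 229.8 and 228 CPM, and is not called without the second wild type library (0.09). The lesser fall, of Slc2a4 (from 1.82 and 2.18 CPM to 1.15 and 1.40 CPM), is not called under median-of-ratios scaling.

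Most glycolytic enzymes rose, 16 of 22 called higher and 2 lower against 28.3% and 49.1% of all genes (median 0.45). Ldha, which turns pyruvate into lactate, had 369 and 458 CPM in wild type and 1062 and 1042 CPM in labelled KO. Its log2 fold change was 1.35 ± 0.084 (adjusted p = 2.6e-11), and both labelled KO libraries stood far above wild type. Its paralog Ldhb had 36.0 and 37.3 CPM in wild type and 37.2 and 39.0 CPM in labelled KO and did not pass. Pgk1, which makes ATP late in the pathway, had 98.8 and 116 CPM in wild type and 286 and 270.2 CPM in labelled KO and rose by 1.37 ± 0.088. Tpi1, Eno2 and Pfkl rose by 1.03 to 1.18 on the log2 scale, and Gapdh, Aldoa, Eno1, Pgam1 and Pkm by 0.45 to 0.65. The hexokinases, which trap glucose in the cell, differed. Hk1 rose from 139 and 158 CPM to 229 and 217 CPM. Hk2, a common HIF target, had 191 and 197 CPM in wild type and 188 and 187 CPM in labelled KO and did not pass, but the other scalings turn it into a called rise of 0.20 to 0.24. Gpi1, the isomerase of the second step, did not pass either, at 740.3 and 797 CPM in wild type and 784 and 768 CPM in labelled KO. Aldoc, the brain-type aldolase, fell from 54.5 and 50.7 CPM to 26.0 and 26.6 CPM (-0.97 ± 0.056). Pfkfb1 fell from 8.09 and 5.77 CPM to 5.26 and 4.87 CPM, a call lost under median-of-ratios scaling.

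At the entry to the mitochondrion, most kinases that switch off pyruvate dehydrogenase rose and the phosphatases that switch it on fell. Pdk4 had 15.2 and 16.7 CPM in wild type and 96.9 and 90.8 CPM in labelled KO. The groups were far apart, with a log2 fold change of 2.48 ± 0.16 (adjusted p = 3.0e-11). Pdk1, the best known HIF target among the kinases, rose from 125 and 119 CPM to 148 and 143 CPM. Pdk2 rose from 11.5 and 10.4 CPM to 15.8 and 17.0 CPM. Pdk3 fell from 87.6 and 75.1 CPM to 53.5 and 56.0 CPM, against the other 3. The phosphatase genes both fell, Pdp1 from 60.3 and 49.7 CPM to 32.3 and 32.9 CPM. Pdp2 fell from 36.1 and 32.0 CPM to 16.3 and 18.005 CPM. Of the enzyme's subunits, Pdha1 rose from 103 and 104 CPM to 143 and 147 CPM. Pdhb fell from 116 and 109 CPM to 79.4 and 82.5 CPM. Mpc2, a subunit of the mitochondrial pyruvate carrier, fell from 66.4 and 59.2 CPM to 37.4 and 36.9 CPM, while Mpc1 had 7.29 and 7.59 CPM in wild type and 7.50 and 7.13 CPM in labelled KO and did not pass. Over the 12 genes 4 were called higher and 7 lower, with a median of -0.26. That is near the 28.3% and 49.1% of all genes and their median of -0.21, so the list as a whole does not stand out. Under median-of-ratios scaling 4 were higher and 5 lower, with a median of 0.021. Among 13 genes of glycogen and pentose phosphate metabolism 8 were called higher and 4 lower, which becomes 9 and 1 under median-of-ratios scaling. The 8 higher calls drop to 5 without the first labelled KO library and to 5 without the first wild type library. Gys1, glycogen synthase, rose from 73.7 and 84.7 CPM to 149 and 142 CPM. Rpia, ribose phosphate isomerase, fell from 73.2 and 73.7 CPM to 35.6 and 37.7 CPM.

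The 12 largest rises, chosen with no overlap between the groups, reached log2 fold changes of 2.32 to 3.98. Acta1, skeletal muscle actin, had 0.292 and 1.26 CPM in wild type and 27.1 and 25.1 CPM in labelled KO, a log2 fold change of 3.98 ± 0.23 (adjusted p = 1.4e-11). Actin genes are near-identical in sequence, so reads can be split between Acta1, Acta2 and Actg2, and the value of each is uncertain. Bst1, a cell surface enzyme that makes cyclic ADP-ribose, had 13.3 and 15.7 CPM in wild type and 117 and 113 CPM in labelled KO, a rise of 2.91 ± 0.14. Sprr1a, a precursor of the cornified envelope of skin, rose from 1.31 and 2.78 CPM to 22.3 and 18.6 CPM. Ivl, another such precursor, rose from 1.17 and 1.97 CPM to 14.4 and 12.1 CPM. Dsp, which encodes the desmosome protein desmoplakin, rose from 3.64 and 5.31 CPM to 31.2 and 28.1 CPM. Perp, a desmosome-associated p53 target, rose from 5.76 and 6.88 CPM to 36.6 and 36.6 CPM. Sncg, gamma-synuclein, rose from 3.86 and 4.25 CPM to 32.7 and 30.7 CPM. Gpnmb, a transmembrane glycoprotein, rose from 17.0 and 21.8 CPM to 116 and 115 CPM. Slpi, a protease inhibitor, rose from 13.6 and 21.8 CPM to 104 and 100.04 CPM. Pdk4, the matrix protein gene Tinagl1 (from 7.58 and 10.7 CPM to 54.4 and 48.7 CPM) and the protease gene Mmp10 (from 0.947 and 1.32 CPM to 10.8 and 8.57 CPM) complete the 12.

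The 12 largest falls, chosen in the same way, were smaller, down to -1.72 on the log2 scale. Stra8, which retinoic acid turns on as spermatogonia enter meiosis, had 69.6 and 81.9 CPM in wild type and 23.7 and 28.0 CPM in labelled KO. It fell by 1.51 ± 0.075 (adjusted p = 2.2e-12). Mei1, needed for meiotic breaks, fell from 29.5 and 29.3 CPM to 8.85 and 8.57 CPM. Gm4969, which encodes the STRA8 partner MEIOSIN, fell from 33.3 and 37.0 CPM to 10.9 and 11.6 CPM. Tfrc, the transferrin receptor that brings iron into dividing cells, had 516 and 427 CPM in wild type and 159 and 173 CPM in labelled KO. It fell by 1.49 ± 0.075 (adjusted p = 2.2e-12) and was the most abundant of the 12 genes. The lowest log2 value belonged to Paqr9, a membrane receptor gene that had 6.92 and 6.02 CPM in wild type and 0.898 and 1.71 CPM in labelled KO. Tmc3, a transmembrane channel-like gene, fell from 41.6 and 36.2 CPM to 10.5 and 12.6 CPM. Fam90a1b, Fbxo40, Megf11, Dnah14, Ly6g6e and Myrip had log2 fold changes of -1.46 to -1.41 and lay at 15.5 to 35.1 CPM in wild type. At 20% oxygen wild type had 326 and 318 CPM of Tfrc and 66.9 and 68.0 CPM of Stra8.

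Germ cell genes fell together. All 20 genes of germ cell identity were called lower, with log2 fold changes between -1.26 and -0.81 and a median of -1.13, beside 49.1% called lower over all genes. Ddx4, the germ cell RNA helicase (mouse vasa homolog), had 606 and 537 CPM in wild type and 245 and 269 CPM in labelled KO. It fell by 1.15 ± 0.062 (adjusted p = 5.2e-12). Dazl, which binds messenger RNAs of germ cells, had 914 and 844 CPM in wild type and 387 and 409 CPM in labelled KO. It fell by 1.14 ± 0.057 (adjusted p = 2.1e-12), and in neither gene did the groups overlap. The piRNA factors Piwil2, Mov10l1, Tdrd1 and Mael had log2 fold changes of -1.25 to -1.23. Dmrt1, a transcription factor of the male germ line, fell from 388 and 392 CPM to 187 and 192 CPM. Sall4, a zinc finger factor of stem cells, fell from 138 and 138 CPM to 62.5 and 68.5 CPM. The summed level of the 20 genes fell by 1.16 on the log2 scale. Dppa3, at 2.33 and 1.37 CPM in wild type and 0.577 and 0.624 CPM in labelled KO, had the lowest CPM of the list. Its log2 fold change of CPM + 1 was the nearest to 0 (-0.81 ± 0.18), but the added 1 understates a fall at so low a level, so this does not rank its fall as the smallest.

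The undifferentiated state was lower with more variation. Of 32 genes of self-renewal and undifferentiated spermatogonia, 26 fell, 2 rose and 4 did not pass (median -0.74). Zbtb16 (PLZF), a transcription factor that holds stem cells undifferentiated, had 279 and 282 CPM in wild type and 129 and 139.6 CPM in labelled KO. It fell by 1.06 ± 0.049 (adjusted p = 1.2e-12). The GDNF receptor genes fell less. Ret, the signalling chain, fell from 198 and 193 CPM to 113 and 113 CPM, by 0.79 ± 0.044. Gfra1, the ligand binding chain, fell from 124 and 113 CPM to 73.7 and 79.0 CPM, by 0.62 ± 0.065. The GDNF-responsive transcription factors Etv5, Bcl6b and Id4 had log2 fold changes of -0.91 to -0.54. Egr2, an early response gene, had 153 and 139 CPM in wild type and 144 and 139.8 CPM in labelled KO and did not pass, and is a called rise of 0.20 to 0.24 under the other scalings. Lin28a, Taf4b, Epcam and Sox3 fell about as far as the germ identity genes, with -1.18 to -0.99. Nanos2, the marker of the most primitive state, had 6.78 and 7.74 CPM in wild type and 5.19 and 5.18 CPM in labelled KO, a log2 fold change of -0.41 ± 0.17 that is not called under median-of-ratios scaling. Ccnd2, a D-type cyclin, rose from 542 and 538 CPM to 842 and 838 CPM. Shisa6 rose from 1.24 and 1.67 CPM to 2.31 and 2.22 CPM, a call that ends without either labelled KO library or the first wild type library (0.40, 0.44 and 0.29). Of 6 tested pluripotency markers 5 fell, Esrrb from 22.6 and 20.6 CPM to 8.53 and 8.73 CPM, and Klf4, also an early response gene, rose from 194 and 223 CPM to 372 and 365 CPM.

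Genes of differentiation mostly fell alongside. Of 16, 11 fell and 2 rose. Kit, the receptor that marks differentiating spermatogonia, had 68.0 and 65.0 CPM in wild type and 24.8 and 25.1 CPM in labelled KO. It fell by 1.38 ± 0.056 (adjusted p = 3.6e-13), further than each of the 32 stem cell genes. The early differentiation factors Sohlh1 and Sohlh2 and the spermatogonial marker Uchl1 had log2 fold changes of -1.15 to -1.01. Crabp1, a retinoic acid binding protein, rose from 170.1 and 204 CPM to 329 and 353 CPM. Rarg, a retinoic acid receptor, rose from 61.7 and 75.1 CPM to 77.6 and 81.0 CPM, but the call ends without the second labelled KO library (0.19) and without the first wild type library (0.08). Rara, another such receptor, had 40.0 and 47.7 CPM in wild type and 40.5 and 37.3 CPM in labelled KO and did not pass. Of 25 genes of meiotic prophase, 23 fell and none rose (median -1.19). Stag3, a cohesin of meiotic chromosomes, fell from 523 and 499 CPM to 200.1 and 209.5 CPM. Smc1b, Sycp3 and Sycp2 of the cohesin and axis had log2 fold changes of -1.35 to -1.29. The members that did not pass were Meiob, at 0.510 and 0.557 CPM in wild type and 0.192 and 0.312 CPM in labelled KO, and Prdm9, at 5.54 and 5.21 CPM in wild type and 4.10 and 4.83 CPM in labelled KO. Of 18 genes of DNA methylation and the piRNA pathway 17 fell. Dnmt1, the maintenance enzyme, fell from 652 and 659 CPM to 345 and 348 CPM. The de novo enzyme gene Dnmt3b fell from 81.8 and 82.7 CPM to 37.4 and 38.3 CPM, while the cofactor gene Dnmt3l had 5.83 and 5.26 CPM in wild type and 4.42 and 4.60 CPM in labelled KO and did not pass.

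When levels were divided by the summed germ identity genes, a scaling added after the data were seen, every gene moved up by about the same amount, since that sum fell by 1.16 on the log2 scale. On that scale 12394 of the 14841 genes were called higher and 101 lower, and the median over all genes was 0.82. The stem cell list had 19 genes called higher and none lower (median 0.27), and the differentiation list 7 higher and 2 lower (median 0.13). The meiotic list alone kept a median below 0 among these 3, at -0.094, with 3 genes higher and 8 lower. The shift itself sets how many genes are called higher, so these counts are a description relative to the identity genes. This scale treats the 20 identity genes as constant per germ cell, which is an assumption and was not tested.

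Genes of GDNF and FGF feedback were mixed, with 7 of 14 higher and 5 lower. Of the FGF receptors, Fgfr1 rose from 224 and 257 CPM to 342 and 337 CPM. Fgfr3 fell from 18.2 and 19.7 CPM to 6.80 and 8.07 CPM. Dusp4, a phosphatase that ends MAP kinase signals, rose from 18.9 and 17.6 CPM to 43.6 and 42.6 CPM. The feedback inhibitor gene Spred3 rose from 13.6 and 19.7 CPM to 47.5 and 43.4 CPM. Il17rd, which also restrains FGF signals, fell from 130.1 and 121 CPM to 74.1 and 76.1 CPM. Dusp6, a common readout of FGF signalling, had 165 and 154 CPM in wild type and 176 and 170.1 CPM in labelled KO and did not pass. Spry4 did not pass, at 65.9 and 58.2 CPM in wild type and 63.8 and 58.4 CPM in labelled KO, and turns into a called rise of 0.22 to 0.26 under the other scalings.

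Genes of cell division were lower. All 22 mitosis genes fell (median -1.07), and 25 of 26 genes of DNA replication fell (median -0.94), 23 under median-of-ratios scaling. Mki67, the proliferation marker Ki-67, had 429 and 413 CPM in wild type and 168 and 176 CPM in labelled KO. It fell by 1.28 ± 0.063 (adjusted p = 1.9e-12), without overlap. Top2a, the topoisomerase of dividing cells, fell from 649 and 591 CPM to 257 and 268 CPM. The replicative helicase genes fell in step, Mcm2, Mcm3, Mcm4, Mcm5, Mcm6 and Mcm7 with log2 fold changes of -1.12 to -0.97. Rrm2, a ribonucleotide reductase subunit, had 44.7 and 46.7 CPM in wild type and 43.7 and 42.6 CPM in labelled KO and did not pass, and is a called rise of 0.16 to 0.20 under the other scalings. Divided by the germ identity sum, 8 mitosis genes were higher and 1 lower (median 0.067), and 18 replication genes were higher and none lower (median 0.20). On that scale 12394 of all 14841 genes were called higher, with a median of 0.82, so both lists lay below the typical gene.

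Cyclins were found on both sides, 3 of 10 higher and 6 lower, beside 28.3% and 49.1% of all genes. Ccnd1, the D-type cyclin that growth factors induce, had 115 and 149 CPM in wild type and 469.8 and 461 CPM in labelled KO. It rose by 1.82 ± 0.10 (adjusted p = 3.7e-12). Ccnd3 rose from 128 and 131 CPM to 178 and 179 CPM. The A, B and E cyclins Ccna2, Ccnb1, Ccnb3 and Ccne2 had log2 fold changes of -1.41 to -0.90. Of 7 inhibitors of cyclin-dependent kinases 4 were called higher and none lower. Cdkn1a (p21), which stops the cycle in response to p53, had 255 and 319 CPM in wild type and 780.0 and 754 CPM in labelled KO. It rose by 1.42 ± 0.10 (adjusted p = 1.7e-10), without overlap. The senescence-linked Cdkn2a rose from 65.5 and 80.9 CPM to 134 and 131 CPM. Its neighbour Cdkn2b rose from 28.0 and 30.6 CPM to 74.6 and 68.9 CPM. Cdkn1b had 9.77 and 8.80 CPM in wild type and 9.68 and 9.78 CPM in labelled KO and did not pass, and Cdkn1c did not pass at 53.1 and 66.5 CPM in wild type and 55.8 and 55.4 CPM in labelled KO. Cdkn1c is a called rise of 0.19 under median-of-ratios scaling and a called fall (-0.25) without the first wild type library.

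Targets of p53 rose beyond Cdkn1a, 16 of 20 with 2 lower and a median of 1.01. Ccng1, an atypical cyclin, had 215 and 249.7 CPM in wild type and 757 and 761 CPM in labelled KO. It rose by 1.71 ± 0.065 with an adjusted p of 3.6e-13, the smallest of the list. Phlda3, the death receptor gene Fas, Plk2 and the gene of the secreted factor Gdf15 rose by 1.22 to 1.94. Mdm2, which limits p53, rose from 333 and 327 CPM to 501 and 516 CPM. Trp53 itself had 92.5 and 94.0 CPM in wild type and 92.2 and 99.1 CPM in labelled KO and did not pass. Sesn1 fell from 44.6 and 39.3 CPM to 25.5 and 27.1 CPM. Gtse1, a cell cycle gene that restrains p53, fell from 77.5 and 82.8 CPM to 71.9 and 74.8 CPM (-0.13 ± 0.055, adjusted p = 0.046), which median-of-ratios scaling turns into a called rise of 0.16. Of 15 genes of the BCL2 family 8 rose and 5 fell. Among those that promote cell death, Bak1 rose from 8.96 and 13.7 CPM to 43.9 and 43.2 CPM, Bbc3 (Puma) rose by 1.15 and Bmf fell by 0.94. The survival genes Mcl1 and Bcl2l2 rose by 0.68 to 0.80.

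Fibroblast genes rose without exception in their list. All 28 were called higher, with log2 fold changes from 0.43 to 2.10 and a median of 0.93. Col1a1, the main chain of type I collagen, had 4727 and 6438 CPM in wild type and 10072 and 9646 CPM in labelled KO. The wild type libraries differed from each other there more than the labelled KO libraries did, but the groups did not overlap, and the rise was 0.84 ± 0.12 (adjusted p = 4.5e-06). Twist2, a mesenchymal transcription factor, rose most, from 10.6 and 13.3 CPM to 55.0 and 52.9 CPM (2.10 ± 0.14). Acta2, smooth muscle actin, had 103 and 134 CPM in wild type and 485 and 488 CPM in labelled KO, a rise of 2.04 ± 0.11. Fap (0.43) and Postn (0.47) rose least, and Fap is not called without the second wild type library (0.36). Of 15 contractile genes and targets of the coactivator YAP 14 rose (median 1.50). Tagln, Tpm1, Ankrd1 and the receptor gene Axl rose by 1.31 to 1.86. Ajuba had 55.8 and 60.8 CPM in wild type and 55.8 and 58.3 CPM in labelled KO and did not pass, with a called rise of 0.21 to 0.25 under the other scalings.

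Matrix genes followed, 18 of 22 collagen genes higher and 2 lower. Col4a1, a basement membrane chain, had 239 and 343 CPM in wild type and 956 and 904 CPM in labelled KO. Its rise of 1.69 ± 0.12 stood beside 0.70 for the fibrillar Col3a1, 1.55 for Col4a2 and 1.79 for the anchoring fibril chain Col7a1. Col2a1, the cartilage collagen, fell from 20.9 and 21.9 CPM to 14.0 and 14.1 CPM. Col14a1 fell from 35.3 and 34.6 CPM to 27.1 and 25.2 CPM, a call lost under median-of-ratios scaling. All 16 genes of enzymes and chaperones that modify collagen rose. Loxl4, which crosslinks collagen, rose from 10.6 and 11.9 CPM to 54.2 and 46.0 CPM. The collagen chaperone gene Serpinh1 and the hydroxylase gene P3h1 rose by 1.08 to 1.33. Of 15 matrix proteases and inhibitors 14 rose. Mmp14, Mmp19, Adamts1 and Timp2 rose by 1.21 to 1.58. Mmp9, a gelatinase, fell from 28.9 and 26.1 CPM to 17.6 and 19.0 CPM. Of 10 tested genes of IGF binding proteins and epithelial keratins 8 rose and 1 fell, with Krt19 rising from 7.07 and 8.15 CPM to 15.9 and 16.3 CPM and Igfbp4 rising from 131 and 133 CPM to 247 and 211 CPM. The fall, of Igfbp2 (from 80.6 and 83.8 CPM to 68.7 and 69.3 CPM), is lost under median-of-ratios scaling.

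Growth factors of the stem cell niche rose with the fibroblast genes, 18 of 20 with 1 lower (median 1.01). Gdnf, the factor that GS cells depend on, had 6.56 and 7.54 CPM in wild type and 18.5 and 19.3 CPM in labelled KO. It rose by 1.31 ± 0.14 (adjusted p = 3.2e-08), while the transcripts of both its receptor chains fell. Csf1, a macrophage and niche factor, had 142 and 192 CPM in wild type and 602 and 598 CPM in labelled KO. The labelled KO libraries stood far above wild type, with a rise of 1.86 ± 0.13 (adjusted p = 1.5e-10). Kitl, the ligand of KIT, rose from 53.1 and 57.9 CPM to 114 and 115 CPM. Bmp4, Lif and Fgf2 rose by 0.89 to 1.45. Nrtn, a relative of GDNF, fell from 2.77 and 2.83 CPM to 0.898 and 1.83 CPM, and Fgf9 did not pass, at 5.54 and 3.9967 CPM in wild type and 4.55 and 3.74 CPM in labelled KO. Of 17 ligands and receptors of vessel growth 13 rose and 3 fell. Flt1, a VEGF receptor, rose from 74.9 and 80.7 CPM to 171 and 172 CPM. Angptl4, a regulator of lipid and vessels, rose from 105 and 129 CPM to 289.5 and 284 CPM. Pdgfb, a ligand of the PDGF receptors, fell from 64.9 and 64.6 CPM to 31.9 and 34.3 CPM.

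Inflammatory genes were higher. Of 22 cytokines, chemokines and acute phase genes 19 rose and none fell (median 0.99). C3, the central complement component, had 113 and 122 CPM in wild type and 354 and 313 CPM in labelled KO. It rose by 1.49 ± 0.069 (adjusted p = 1.1e-12), without overlap. Hp, haptoglobin, rose from 67.9 and 63.1 CPM to 290.2 and 237 CPM. The chemokine genes Ccl2 and Ccl7 and Il6 rose by 0.92 to 1.40. Leukocyte markers stayed low beside them. Cd68 rose from 5.32 and 5.92 CPM to 11.5 and 13.1 CPM, and Ptprc, the marker of all leukocytes, had 0.729 and 1.06 CPM in wild type and 1.28 and 0.935 CPM in labelled KO and did not pass.

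Of 23 interferon response genes 16 rose and 5 fell. The antiviral genes Ifit2, Ddx58 and Isg15 rose by 1.29 to 1.78. Ddx58, the RNA sensor RIG-I, had 14.7 and 15.5 CPM in wild type and 37.5 and 44.1 CPM in labelled KO. Gbp2, Gbp3 and Rsad2 had log2 fold changes of -1.12 to -0.73. Of 11 genes of MHC class I and antigen processing 6 rose and 4 fell. B2m, the light chain of MHC class I, had 123 and 126 CPM in wild type and 372 and 364 CPM in labelled KO. It rose by 1.56 ± 0.066 (adjusted p = 5.8e-13), beside 0.50 for the heavy chain gene H2-K1. Psmb10, a subunit of the immunoproteasome, fell from 71.8 and 84.2 CPM to 39.9 and 40.4 CPM. Since only the cells labelled KO are stated to have received a vector, vector and genotype cannot be told apart.

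Early response and stress genes were split. Of 17 immediate early genes 15 rose, Fosl1, Nr4a1 and Myc by 1.03 to 1.28, and Egr3 fell from 80.8 and 71.7 CPM to 60.5 and 55.0 CPM, a call lost under median-of-ratios scaling. In the antioxidant list 17 of 23 rose and 5 fell. Srxn1, which repairs peroxiredoxins, rose from 45.9 and 51.5 CPM to 124 and 118 CPM. The glutathione enzyme genes Gclc, Gclm and Gsr had log2 fold changes of -0.98 to -0.68. The cytosolic dismutase gene Sod1 fell from 415 and 413 CPM to 247 and 264 CPM. Nqo1, a standard target of NRF2, had 8.82 and 8.55 CPM in wild type and 10.8 and 10.4 CPM in labelled KO and did not pass. Of 20 genes of the unfolded protein and integrated stress response 11 rose and 3 fell, or 16 and 2 under median-of-ratios scaling. The stress transcription factor genes Atf3, Atf5 and Ddit3 rose by 1.04 to 1.50. Phgdh, the first enzyme of serine synthesis, fell from 130.2 and 136 CPM to 81.4 and 92.0 CPM. Asns did not pass, at 56.4 and 56.0 CPM in wild type and 54.9 and 57.4 CPM in labelled KO, and is a called rise of 0.24 to 0.29 under the other scalings. Of 14 heat shock chaperones 5 rose and 5 fell, or 9 and 3 under median-of-ratios scaling. The small chaperone genes Hspb1, Hspb8 and Cryab rose by 1.49 to 1.80. The cytosolic Hsp90aa1 and the mitochondrial Hspe1 had log2 fold changes of -0.81 to -0.68.

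Nuclear genes of oxidative phosphorylation changed direction with the scale, as the median of all genes did. Genes of the mitochondrial genome and its upkeep were mostly lower on both scales. Of 40 nuclear genes of oxidative phosphorylation 7 were called higher and 17 lower (median -0.11), but under median-of-ratios scaling 24 were higher and 4 lower (median 0.18). Over all genes 28.3% were called higher and 49.1% lower (median -0.21), or 40.1% and 33.7% under that scaling (median 0.027). The list median thus lay above that of all genes on both scales. Counts of TCA cycle and ribosomal genes below are to be read against the same shares. Atp5o, Sdha, Ndufv1 and Cyc1 were lower on both scales, with -0.50 to -0.40 on CPM. Cox7b and Ndufa1 were higher on both, by 0.62 to 0.76. Of 7 tested genes of the mitochondrial genome 6 fell (median -0.48), 4 under the other scaling. Of these, mt-Co1 fell from 7836 and 5951 CPM to 4527 and 4786 CPM, with the wild type libraries far apart. Factors that copy and transcribe that genome fell in 12 of 14 cases, 9 under median-of-ratios scaling with 1 higher. Tfam, which packs mitochondrial DNA, fell from 53.3 and 50.3 CPM to 32.0 and 33.5 CPM. Polg, its polymerase, fell from 138 and 138 CPM to 86.5 and 91.5 CPM. Top1mt, its topoisomerase, had 34.9 and 33.8 CPM in wild type and 24.5 and 24.6 CPM in labelled KO. It fell by 0.47 ± 0.071 (adjusted p = 5.5e-06). Of 19 genes of the TCA cycle 7 rose and 8 fell, or 11 and 3 under median-of-ratios scaling. Mdh2 and Fh1 were lower on both scales and Idh1 and Idh2 higher, Mdh2 from 443 and 462 CPM to 313 and 319 CPM and Idh2 from 19.4 and 21.1 CPM to 35.7 and 33.2 CPM. The 32 cytosolic ribosomal protein genes, 6 higher and 15 lower, turn to 20 higher and 0 lower under median-of-ratios scaling.

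Lipid and iron genes showed clear single members. Plin2, the coat protein of lipid droplets, had 61.1 and 83.8 CPM in wild type and 318 and 301 CPM in labelled KO. It rose by 2.10 ± 0.10 (adjusted p = 1.5e-12), without overlap. Of 21 genes of fatty acid synthesis and storage 8 rose and 10 fell, near the 28.3% and 49.1% of all genes. The fatty acid binding protein genes Fabp4 and Fabp5 rose by 1.23 to 1.33, while the synthesis enzyme genes Acly, Acaca and Fasn had log2 fold changes of -0.73 to -0.54. Of 16 genes of fatty acid oxidation 9 rose and 3 fell, or 13 and 0 under median-of-ratios scaling. Of 25 genes of cholesterol synthesis 6 rose and 16 fell, or 9 and 13 under median-of-ratios scaling. Dhcr7, the last step, fell from 187 and 166 CPM to 79.8 and 85.3 CPM. Ebp, an isomerase late in the pathway, rose from 3.06 and 4.30 CPM to 10.003 and 10.8 CPM. Of 16 genes of iron handling 10 rose and 6 fell. Against the fall of Tfrc, the iron store gene Fth1 rose from 779.9 and 801 CPM to 1509 and 1411 CPM. Slc40a1, the iron exporter, fell from 26.7 and 21.1 CPM to 11.9 and 12.4 CPM. Ferritin genes have many processed copies that can take or give reads, so the value of Fth1 is uncertain.

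Of 18 chromatin demethylases that use oxygen, 5 rose and 13 fell, or 5 and 9 under median-of-ratios scaling. Over all genes the shares were 28.3% and 49.1%, or 40.1% and 33.7% under that scaling. The histone demethylase genes Kdm7a, Kdm5a and Kdm5b had log2 fold changes of -0.91 to -0.68. Tet2, which oxidises methylated cytosine, rose from 17.2 and 17.4 CPM to 33.2 and 29.6 CPM. Of 9 tested histone genes of the replication clusters 7 rose and none fell. Hist1h1c, a linker histone, rose from 56.7 and 67.5 CPM to 145 and 132 CPM. Replication-dependent histone transcripts mostly lack the poly(A) tail that the library kit selects for, and the genes are near-identical copies, so their values are uncertain.

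**Figure D4:**
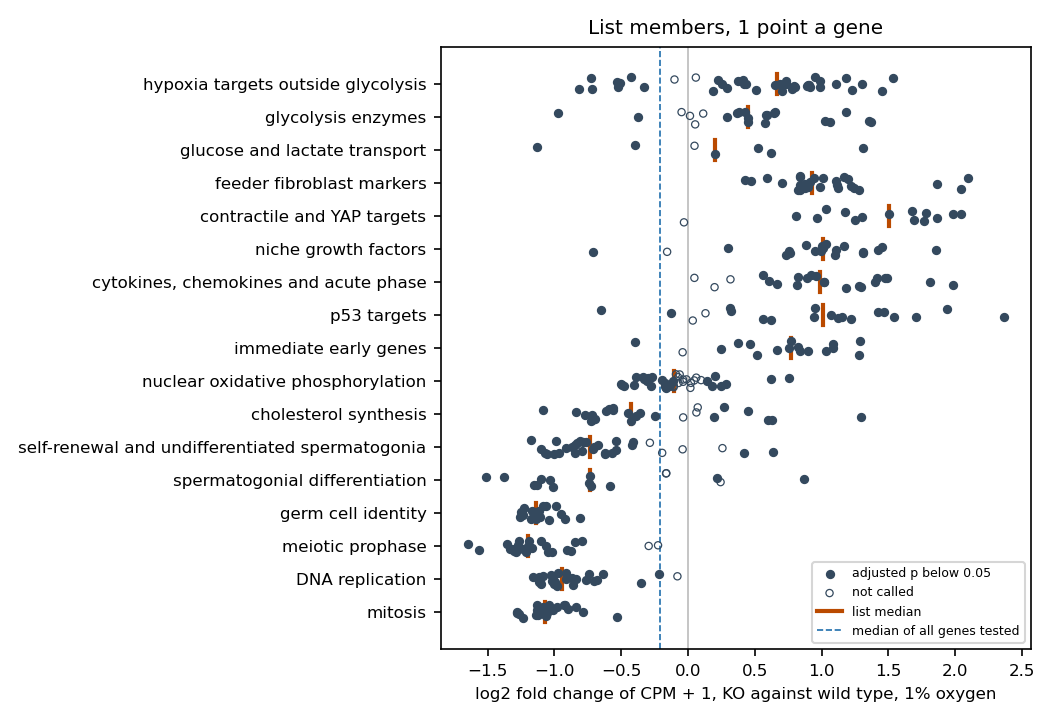
Each point is 1 gene of 17 gene lists, placed by its log2 fold change of CPM + 1 between the libraries labelled Hif1a KO and wild type at 1% oxygen. Filled points passed an adjusted p of 0.05, open points did not, the orange bar is the list's median and the dashed line the median of all 14841 genes, -0.21. Lists of fibroblast, contractile and inflammatory genes lie to the right, and those of germ cells and cell division lie to the left, down to -1.65.

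The same labelled genotypes differed far less at 20% oxygen. There 3329 genes were called, 1912 higher (12.9%) and 1417 lower (9.55%), and 29 rose and 0 fell by at least 2-fold. The count at 20% rests on single libraries: it was 1574 without the second labelled KO library, 1508 without the first wild type library, 1960 without the second and 2957 without the first labelled KO library. The fit also tested the difference between the effect at 1% and that at 20%, which was called in 8603 genes, 2819 with a higher value at 1% (19.0%) and 5784 with a lower one (39.0%). Under median-of-ratios scaling 61.7% of the calls in this test were higher, in place of 32.8%. Names of the libraries at 1% carry a letter and a day mark that those at 20% lack, and their meaning is not given, so oxygen and a set of libraries cannot be told apart.

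By group, the hypoxia targets had a median of 0.67 at 1% and -0.023 at 20%, and 26 of 40 had a called higher value at 1% and 5 a lower one. Bnip3 had 15.7 and 14.2 CPM in wild type and 14.7 and 13.4 CPM in labelled KO at 20%. Its effects differed by 0.98 (adjusted p = 7.2e-08). For Egln3 the effect turned from -0.25 at 20% to 0.92 at 1%, a difference of 1.16 (adjusted p = 1.4e-08). Slc2a1 differed by 0.41. Car9 differed by 1.08, while for Vegfa the difference of 0.26 did not pass (adjusted p = 0.084). Hif1a itself rose by 0.26 at 20% and by 1.27 at 1% (difference 1.01, adjusted p = 2.4e-08). The effect on Hif3a was -0.031 at 20% and -0.96 at 1%.

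Germ cell and fibroblast lists had medians of the same sign at 20%, nearer to 0. The germ identity median was -0.23 at 20% with 15 of 20 called lower, and 19 of the 20 had a called lower value at 1%. For Kit this difference was -1.19, beside Stra8 with -1.13, Ddx4 with -0.92 and Dazl with -0.91. Zbtb16 differed by -0.88 and Mki67 by -1.05. For Gfra1 and Ret the effect at 20% was -0.020 and -0.16, and the differences were -0.60 and -0.63. Summed germ identity genes at 20% were 5417 and 5354 CPM in wild type and 4713 and 4408 CPM in labelled KO. The fibroblast median was 0.52 at 20%, with 25 of 28 called higher, and 22 had a called higher value at 1%. Col1a1 rose by 0.42 at 20%, and its difference of 0.42 lay just inside the threshold (adjusted p = 0.05 after rounding). Cdkn1a rose by 0.74 at 20% and differed by 0.68. Summed fibroblast markers at 20% were 13029 and 14049 CPM in wild type and 18323 and 21671 CPM in labelled KO. Among the 12 largest rises, 11 were called higher in the separate libraries at 20% too, and among the 12 largest falls 9 were called lower there. Their differences between 1% and 20% contain the effect at 1% that chose them and are not counted here.

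Removal of another gene at 1% oxygen gives a further comparison. Cells of the Top1mt line labelled KO for that gene, which encodes the mitochondrial topoisomerase, were set against their own wild type, and the difference between both KO effects was tested. It was called in 7568 genes, 2730 with a higher value in the Hif1a line (18.4%) and 4838 with a lower one (32.6%), and median-of-ratios scaling raises the share of higher calls from 36.1% to 65.2%. Lines, background, treatment with the vector and the day marks in the library names (6 in the Hif1a line, 2 in the Top1mt line) differ along with the gene. These cannot be told apart.

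Hypoxia targets had a median of 0.67 in the Hif1a line and 0.59 in the Top1mt line. Of the 40, 7 differed with a higher value in the Hif1a line and 8 with a lower one, and the median difference was -0.025. Bnip3 had 132 and 136 CPM in Top1mt wild type and 252 and 246 CPM in Top1mt KO, an effect of 0.90 beside 0.90 (adjusted p of the difference 0.99). The effect on Car9 was 0.79 there and that on Vegfa 0.80, and neither differed from the Hif1a line by the test (adjusted p = 1 and 0.68). A p above the threshold does not show that the effects are alike. Hif1a had 154 and 148 CPM in Top1mt wild type and 174 and 174 CPM in Top1mt KO, an effect of 0.21, and differed by 1.06 (adjusted p = 1.4e-08).

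The fibroblast list had medians of 0.93 in the Hif1a line and 0.91 in the Top1mt line, with 3 genes differing each way. Summed fibroblast markers were 26366 and 26244 CPM in Top1mt wild type and 50706 and 49594 CPM in Top1mt KO. Germ identity had a median of -0.45 in the Top1mt line, and 18 of 20 genes had a called lower value in the Hif1a line. Stra8 had 204 and 218 CPM in Top1mt wild type and 274 and 255 CPM in Top1mt KO. Its effect there was 0.32, and the difference was -1.84 (adjusted p = 3.3e-10). Gfra1 had 293 and 283 CPM in Top1mt wild type and 54.3 and 59.8 CPM in Top1mt KO. It lay further below wild type there, with a difference of 1.70 (adjusted p = 1.7e-10). Ret (0.62), Etv5 (0.80) and Zbtb16 (0.33) differed in the same direction. Over the 32 stem cell genes, 11 had a called higher and 10 a called lower value in the Hif1a line. Of the p53 targets, 16 of 20 had a called higher value in the Hif1a line, Ccng1 by 1.47 and Cdkn1a by 0.67. Of the cytokine list 14 of 22 had one, C3 by 0.76.

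**Figure D5:**
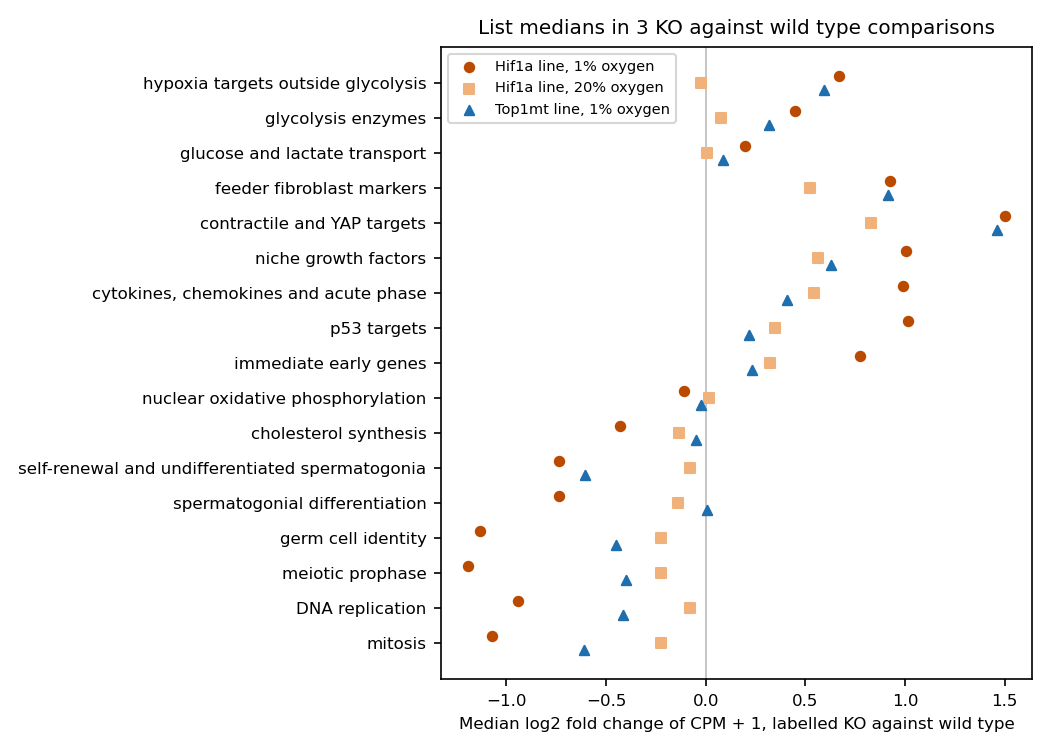
Median log2 fold change of CPM + 1 for 17 gene lists in 3 comparisons of labelled KO with wild type: the Hif1a line at 1% oxygen (circles), the Hif1a line at 20% (squares) and the Top1mt line at 1% (triangles). Hypoxia targets lie at 0.67 and 0.59 in the comparisons at 1% and at -0.023 at 20%. In the order given, p53 targets lie at 1.01, 0.345 and 0.219 and cytokines at 0.989, 0.544 and 0.407. Lists of hypoxia, transport, glycolysis, fibroblast, contractile, niche and immediate early genes also have their highest median in the Hif1a line at 1%.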

How the data were processed

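Poly(A)-selected, strand-marked RNA-seq libraries were measured, per the labels' protocols. The authors deposited a table of CPM values of protein-coding genes, each column summing to the same total. Per the submitters' processing notes, cutadapt 1.16, STAR 2.6.0c, HTSeq 0.11.2, DESeq2 1.22.2 and build mm10 were used, without stated settings. Low CPM values in the deposited table were whole multiples of 1 read, and the recovered read counts were whole for 100% of values in each library, within 0.01 of a read. Depth was 11942104 to 25659895 reads on genes. All 16 columns were matched to samples by name.

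Genes with at least 1 CPM in at least 2 libraries were tested with limma 3.58.1 (R 4.3.3) on log2(CPM + 1), so fold changes of low genes are understated. The fit held 8 group means over all 16 libraries, with trended variances and Benjamini-Hochberg adjustment over all genes tested. It gave labelled Hif1a KO against wild type at 1% and at 20% oxygen, the difference of these effects, and the difference from the Top1mt KO effect. Every adjusted p is limma's. The code was tested on simulated data. Alternatives were a pseudocount of 0.25, no filter on low values, and median-of-ratios and TMM scaling. Others were edgeR 4.0.16 and DESeq2 1.42.0 on the recovered reads, the compared libraries alone, and a replicate block. Each library of the Hif1a line was also left out in turn, those at 20% only for the comparison at 20%.

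Members and gene lists were chosen with earlier results of these data known. Named genes were Hif1a in every library, the 12 largest rises and falls with no overlap and a mean of at least 5 CPM in a group, up to 5 members of each list with the smallest adjusted p, and 20 genes of the HIF pathway, germ line, fibroblasts and cell cycle. Other named genes were chosen after their values were seen. Positions come from GENCODE M21, where 21888 of the 21924 symbols matched once, and promoters from RefSeq. Libraries of the DBA/2 line enter the fit's spread and are not described.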

Additional observations from a re-analysis of the deposited data

Results flagged for a closer look

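The labelled Hif1a KO effect at 1% oxygen differed from that at 20% by the test of the difference itself (limma, adjusted p under the threshold) in 8603 genes. Values are effects at 1% minus effects at 20%, on the log2 scale of CPM + 1. Among the genes of the HIF pathway and its targets, the difference was 1.01 for Hif1a, -0.93 for Hif3a, 0.41 for Slc2a1, 1.08 for Car9, 0.98 for Bnip3 and 1.16 for Egln3. In germ cell genes it was -0.88 for Zbtb16, -0.60 for Gfra1, -0.63 for Ret, -1.19 for Kit, -1.13 for Stra8, -0.92 for Ddx4 and -0.91 for Dazl. It was 0.42 for Col1a1, near the threshold, 0.68 for Cdkn1a, -1.05 for Mki67 and -0.30 for Top1mt.

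The largest rises and falls were chosen by their effect at 1%, which the difference contains, so a called difference is largely set by that choice and the values are a description. Among the rises it was 2.50 for Acta1, 2.29 for Bst1, 2.34 for Sprr1a, 1.91 for Sncg, 1.76 for Gpnmb, 1.97 for Dsp, 0.73 for Slpi, 1.51 for Ivl, 1.37 for Pdk4, 1.41 for Tinagl1 and 1.60 for Perp. Among the falls it was -1.31 for Paqr9, -1.40 for Tmc3, -1.38 for Mei1, -1.27 for Gm4969, -1.23 for Tfrc and -1.38 for Fam90a1b. Fbxo40 differed by -1.03, Megf11 by -1.04, Dnah14 by -0.92, Ly6g6e by -1.13 and Myrip by -1.27. Marker sums moved with these values: germ identity genes at 1% were at 0.449 times the wild type level, and their part in the differences was not tested.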

How the results depend on the processing

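In the series 1 read stood for 0.039 to 0.0837 CPM, so genes near the minimum of 1 CPM rest on few reads. Scaling and single libraries moved the counts and small changes given here, and the cause was not tested. With 2 libraries a group, a group left with 1 library is assumed to vary like the others. Of 280 named genes, 244 kept direction and side of the threshold under all 12 settings. At 1% oxygen, the 7283 genes called lower became 4464 with DESeq2. The 1141 genes at least 2-fold higher became 1944 with median-of-ratios scaling, 1826 with TMM, 2217 with edgeR and 2305 with DESeq2. The 753 at least 2-fold lower became 1194 with a pseudocount of 0.25, 84 with median-of-ratios scaling, 125 with TMM, 451 with edgeR and 346 with DESeq2. Leaving out 1 library gave 10539 to 11196 calls, 3842 to 4092 higher, 6697 to 7104 lower, and 917 to 1359 higher and 595 to 1037 lower by at least 2-fold. At 20%, where all alternatives were added after the data were seen, DESeq2 called 834 genes lower in place of 1417, and leaving out 1 library gave 1508 to 2957 calls, 1065 to 1757 higher and 423 to 1200 lower.

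For the difference between 1% and 20%, 2819 higher calls became 4966 with median-of-ratios scaling, 4541 with TMM and 4240 with edgeR, and 5784 lower calls became 3081, 3564 and 3448, or 2524 with DESeq2. Leaving out 1 library at 1% gave 7537 to 8753 calls, 2346 to 2958 higher and 5170 to 5795 lower. No library at 20% was left out for this difference. For the difference from the Top1mt line, 2730 higher calls became 4856, 4395 and 4225 under the same settings, and 4838 lower calls became 2593, 2944 and 2818, or 2002 with DESeq2. There leaving out 1 library of the Hif1a line gave 6465 to 7790 calls, 2302 to 2873 higher and 4163 to 4917 lower. No library of the Top1mt line was left out, so this range does not show how the counts depend on that line.

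Under median-of-ratios scaling, TMM, edgeR and DESeq2 in turn, these log2 fold changes turned positive: Ajuba to 0.25, 0.21, 0.22 and 0.25, Arnt to 0.25, 0.21, 0.22 and 0.25, Asns to 0.28, 0.24, 0.25 and 0.29, Bnip3l to 0.18, 0.14, 0.15 and 0.18, Egr2 to 0.24, 0.20, 0.21 and 0.24. Likewise turned Gtse1 to 0.16, 0.12, 0.12 and 0.16, Hk2 to 0.24, 0.20, 0.20 and 0.24, Rrm2 to 0.20, 0.16, 0.16 and 0.20, and Spry4 to 0.26, 0.22, 0.23 and 0.26. Cdkn1c turned to 0.19 under median-of-ratios scaling and Igfbp2 to 0.03 there and with DESeq2. Division by the germ identity sum moves all genes up about alike and so turned the list medians to 0.27 (stem cell), 0.13 (differentiation), 0.20 (DNA replication), 0.07 (mitosis) and 0.04 (DNA methylation and piRNA, which shares Piwil2, Mov10l1 and Tdrd1 with that sum). Calls of low or little changed genes ended without 1 library: Nanos2 (-0.42 to -0.33) and Nos2 (-0.36 to -0.18) without either labelled KO library or the second wild type library, as did Gtse1 (-0.15 to -0.08). Pfkfb1 lost its call without either labelled KO library or the first wild type library (-0.42 to -0.16), Slc2a4 without the first labelled KO or the second wild type library (-0.32 and -0.31), and Col14a1 without the second labelled KO library (-0.35). Without the first wild type library Cdkn1c (-0.25) and Rara (-0.29) were called lower.

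Replicate numbers did not pair the libraries: deviations from the group means of same-numbered libraries correlated at -0.06 at 1% and 0.06 at 20% over 14841 genes. With the replicate block, 11541 genes were called at 1% (4226 higher, 7315 lower), 3804 at 20%, 8833 for the difference between them and 7915 for that from the Top1mt line, all within 1.5 times of the counts without it, and 2 named genes gained a call.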
